A study of Homo sapiens with 4 samples.

Results

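The 78 protein-coding genes whose symbols begin with MRPL or MRPS and a number encode most of the proteins of the human mitochondrial ribosome. They were taken by symbol and gene type from a table of 34826 genes, of which 17097 are protein-coding, and no measured value entered the choice. The name marks 49 genes as MRPL, for the large subunit, and 29 as MRPS, for the small subunit. RNA came from HCT116, a human colorectal cancer cell line, and every library, the controls included, carries a degron tag on Ki-67, a proliferation-associated nuclear protein. The control group (n = 2) was untreated, and the other group (n = 2) received the auxin indole acetic acid (IAA) at 0.5 mM for 24 h, which marks the tagged protein for destruction. The labels name the line HCT116-Ki-67-mAC-AID and do not say whether it is 1 clone, and each sample pooled cells of 3 dishes. All treated libraries carried the tag, so an effect of IAA and an effect of Ki-67 loss cannot be told apart. The samples are labelled as biological replicates with nothing on separate days, so p-values measure the spread between these samples, which may be technical.

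Mitochondrial ribosomes translate the few messages of the mitochondrial genome, which encode membrane subunits of the respiratory chain and ATP synthase. Their ribosomal RNAs are transcribed inside the organelle, whereas all of their proteins are made in the cytosol from nuclear genes and imported. Some of these proteins have counterparts in bacterial ribosomes and others were added during the evolution of mitochondria. The symbols follow an older nomenclature, and a few do not match the place of the protein. The proteins of MRPS18A and MRPS30 are found in the large subunit, and that of MRPS36, also called KGD4, is known as a subunit of the 2-oxoglutarate dehydrogenase complex. Counts, sums and figures by subunit follow the symbols, so MRPS18A, MRPS30 and MRPS36 are counted as MRPS genes.

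The members do not form a cluster in the genome. They lay on 21 chromosomes, with at most 8 on any of them, and all 78 matched GENCODE release 29 on GRCh38 by identifier, name and start. Promoter windows were found for 69 of the 78 in RefSeq (GRCh38.p14, the first window listed per gene). Both strands were searched for short motifs of general promoter factors. The letters AAGATGGCG, a YY1 motif, stood in 13 windows (18.8%), against 1.85% of 27305 windows of all genes and 4.06% of 9830 windows of tested protein-coding genes. The ETS motif CCGGAAGT stood in 11 windows (15.9%), against 4.44% and 8.99%. At least 1 of these motifs stood in 22 windows (31.9%), against 6.08% and 12.6%, and both in 2. The NRF1 motif GCGCATGCG stood in 3 windows (4.35%), against 2.10% and 3.77%, and the same letters with a free central base (GCGCANGCG) in 13 (18.8%), against 8.05% and 15.0%. TATAAA stood in 2 windows (2.90%), against 11.95% and 5.25%. In most of the windows with the YY1 letters, these begin after the annotated start, between positions 7 (MRPL38) and 36 (MRPL22). They begin before it in MRPL32, MRPL36 and MRPL52. The YY1 letters include ATG, and whether they are part of a start codon was not tested. All these matches are descriptions of letters and not of binding.

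The following 6 windows, written 5′ to 3′ on the strand of the gene, are shown because they belong to the most abundant member of each subunit (MRPS34 and MRPL51), the least abundant member of each subunit (MRPS24 and MRPL46), and the members named MRPS whose proteins sit in the large subunit (MRPS18A and MRPS30). Capitals mark the ETS motif, read here on the opposite strand, in MRPS34 and MRPL51, and the YY1 motif in the others. On RefSeq GRCh38.p14 the windows are chr16:1773105-1773264 on the minus strand for MRPS34, chr12:6493233-6493392 on the minus strand for MRPL51, chr6:43687762-43687921 on the minus strand for MRPS18A, chr5:44808817-44808976 on the plus strand for MRPS30, chr7:43869488-43869647 on the minus strand for MRPS24 and chr15:88467359-88467518 on the minus strand for MRPL46.
MRPS34: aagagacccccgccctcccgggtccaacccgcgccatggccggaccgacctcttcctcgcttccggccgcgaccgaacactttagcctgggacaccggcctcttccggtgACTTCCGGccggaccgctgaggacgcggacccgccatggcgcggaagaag
MRPL51: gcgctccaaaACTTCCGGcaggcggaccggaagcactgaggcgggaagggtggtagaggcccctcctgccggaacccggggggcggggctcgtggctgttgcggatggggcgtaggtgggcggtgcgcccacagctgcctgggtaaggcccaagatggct
MRPS18A: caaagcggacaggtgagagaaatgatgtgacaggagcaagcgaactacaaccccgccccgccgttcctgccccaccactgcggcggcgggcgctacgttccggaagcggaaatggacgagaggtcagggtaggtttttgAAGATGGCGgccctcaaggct
MRPS30: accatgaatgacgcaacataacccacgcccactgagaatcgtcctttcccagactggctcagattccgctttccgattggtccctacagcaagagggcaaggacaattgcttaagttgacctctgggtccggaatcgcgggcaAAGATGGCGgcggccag
MRPS24: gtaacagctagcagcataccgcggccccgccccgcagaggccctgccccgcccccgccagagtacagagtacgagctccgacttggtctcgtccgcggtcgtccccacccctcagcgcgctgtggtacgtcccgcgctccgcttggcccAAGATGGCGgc
MRPL46: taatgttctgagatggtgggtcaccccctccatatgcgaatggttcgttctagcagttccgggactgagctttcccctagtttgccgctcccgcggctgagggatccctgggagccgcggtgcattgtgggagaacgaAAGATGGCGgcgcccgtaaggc

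Levels are in TPM, reads per gene divided by gene length and set to a fixed sum in each library. For all 78 members that length is all annotated exons of the gene joined, which can exceed the expressed transcript. Comparisons of level between genes depend on this length. MRPL42, for example, held 5211 to 6853 reads per library but averaged 27.6 TPM at a length of 16393 bases. The median level of the members holding the YY1 motif was 38.8 TPM, against 67.9 TPM for those without it. For the ETS motif the medians were 52.7 and 62.0 TPM. Levels are uncertain for MRPS24, MRPL46 and MRPL38, which hold the YY1 motif, and for MRPL53 and MRPS17, which do not. These genes share coding bases with other genes, as described below. The windows shown hold motifs at both ends of the range of levels, with MRPS24 and MRPL46 at the low end. The median log2 fold change of IAA over control was -0.01 with and without the YY1 motif, and -0.01 with and without the ETS motif.

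Over the 4 libraries the median member stood at a mean of 59.0 TPM, against 20.6 TPM for the protein-coding genes tested. The quartiles of the members lay at 40.5 and 98.3 TPM. At least 10 TPM were reached in all 4 libraries by 73 of the 78 members. The medians by symbol were close, 59.6 TPM for MRPL genes and 58.4 TPM for MRPS genes. The level was lower in members with a greater length of joined exons. Between mean log2(TPM + 1) and log2 length, Pearson r was -0.478 and Spearman rho -0.659 over 78 genes. These genes share the 4 libraries, and that length is the divisor in TPM.

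**Figure D1:**
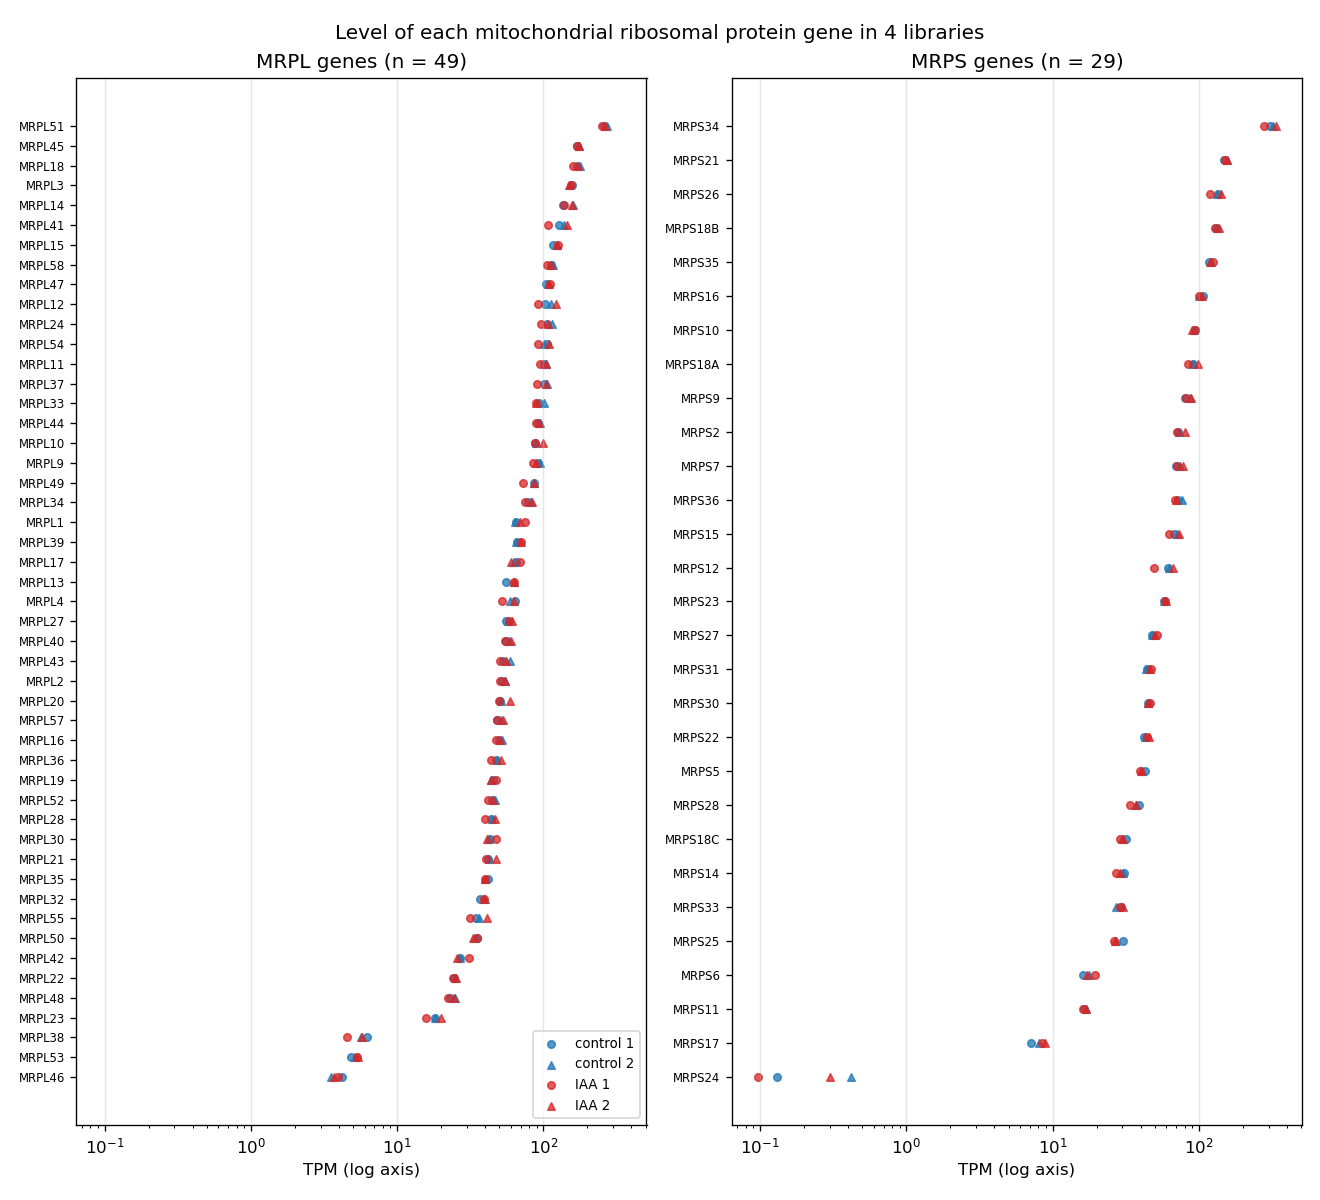
TPM of each member in each of the 4 libraries on a log axis, members ordered by mean level within each subunit. The quartiles lie at 40.5 and 98.3 TPM, and a short tail reaches from MRPL46 down to MRPS24 at 0.236 TPM.

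The member with the highest level was MRPS34, which encodes a small-subunit protein found in mitochondria but not in bacteria (GRCh38 chromosome 16, 1771890 to 1773155, minus strand). MRPS34 stood at 305 and 319 TPM in control replicates 1 and 2 and at 277 and 337 TPM in IAA replicates 1 and 2. The IAA replicates lay on both sides of the controls. Next came MRPL51, a large-subunit gene on chromosome 12 (6491886 to 6493841, minus strand), with 259 and 274 TPM in controls and 252 and 265 TPM with IAA. MRPL45, whose protein lies near the inner membrane at the exit of the peptide tunnel, stood at 171 and 176 TPM in controls and 171 and 174 TPM with IAA. MRPL18, related to the bacterial protein that binds 5S rRNA, stood at 171 and 177 TPM in controls and at 159 and 172 TPM with IAA. In all of these the groups overlapped. MRPS21 stood at 148 and 155 TPM in controls and 151 and 155 TPM with IAA.

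At the other end, the 5 lowest members by mean level were MRPS24, MRPL46, MRPL53, MRPL38 and MRPS17, and all 5 share most of their coding sequence with another annotated gene. In GENCODE 29, 8 members have at least 50% of their coding bases inside exons of another gene on the same strand, and 66 share none. These 8 had a median of 6.85 TPM (0.236 to 107), against 62.6 TPM for the other 70, of which the lowest, MRPS11, stood at 16.6 TPM. Such overlap was present in 10.3% of members and in 6.03% of 17097 protein-coding genes, where the medians were 0.827 TPM with it and 12.1 TPM without. The use of strand and the handling of reads that fall on several genes were not stated in the sources used here, and the part of either in these levels was not tested. The levels of the 8 genes are therefore uncertain.

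**Figure D2:**
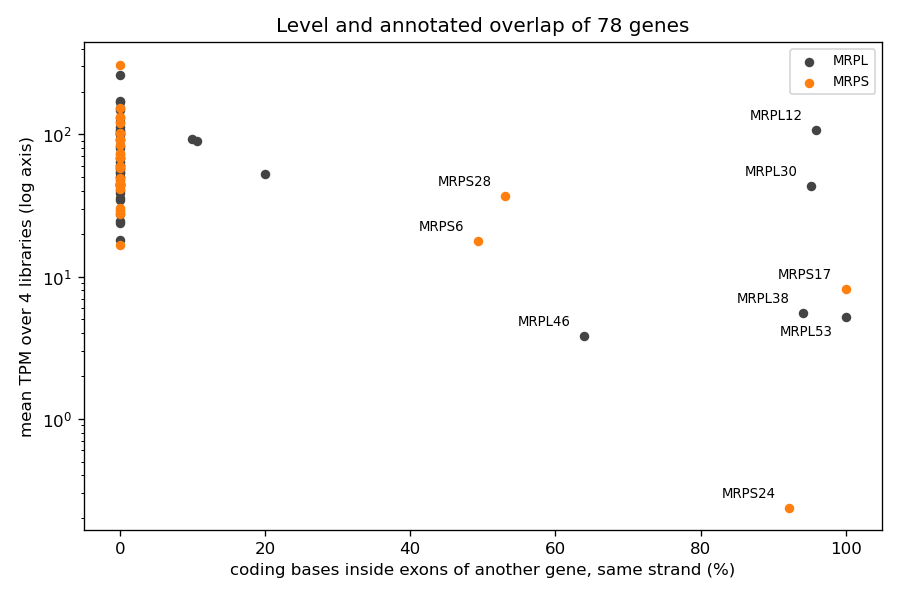
Mean TPM of each member on a log axis against the percentage of its coding bases inside exons of another gene on the same strand. The 8 members at 50% or more have a median of 6.85 TPM, and the other 70 a median of 62.6 TPM.

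MRPS24, a small-subunit gene, was nearly without reads. It held 4 and 17 reads in control replicates 1 and 2 and 3 and 10 reads in IAA replicates 1 and 2, or 0.131, 0.419, 0.0966 and 0.299 TPM. It was the only member that did not reach 1 TPM in 2 libraries and so was not tested. Of its coding bases 92.2% lie in exons of URGCP-MRPS24, an annotated read-through of the upstream gene URGCP. The read-through itself was assigned 1 and 2 reads in controls and 0 in both IAA libraries, whereas URGCP stood at 12.3 and 11.5 TPM in controls and 11.4 and 11.1 TPM with IAA.

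MRPL46, which encodes a protein of the large subunit (chromosome 15, 88459476 to 88467419, minus strand), stood at 4.22 and 3.53 TPM in controls and 3.91 and 3.67 TPM with IAA. Its neighbour MRPS11 starts 34 bases away on the opposite strand and stood at 16.4 and 16.8 TPM in controls and 16.2 and 16.8 TPM with IAA. The pair thus has adjacent starts and unequal levels, while 64.0% of the coding bases of MRPL46 are shared with AC013489.1. MRPL53 (chromosome 2, 74471958 to 74473322, minus strand) has 100% of its coding bases inside exons of CCDC142, and stood at 4.82 and 5.18 TPM in controls and 5.32 and 5.40 TPM with IAA. CCDC142 stood at 8.15 and 7.13 TPM in controls and 6.88 and 7.09 TPM with IAA. Of the coding bases of MRPL38, 94.1% are shared with AC087289.3, which was below 1 TPM in all 4 libraries.

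**Figure D3:**
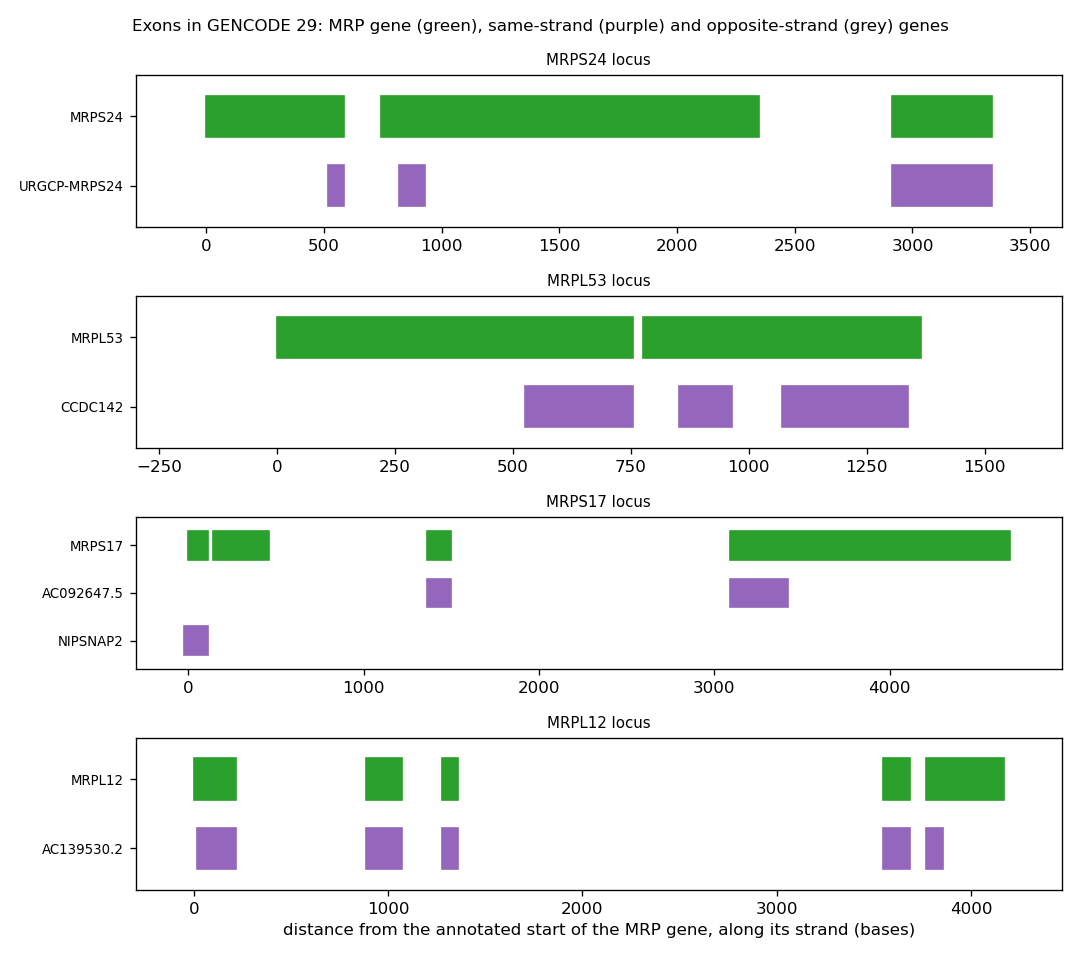
Exons at the MRPS24, MRPL53, MRPS17 and MRPL12 loci (member in green, same-strand genes in purple), drawn to scale by distance in bases from the annotated start of the member. Exons of the other genes lie within or across those of the member and hold 92.2% of the coding bases of MRPS24, 96.0% of those of MRPL12 and 100% of those of MRPL53 and MRPS17.

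The comparison of IAA with control asks whether the messages of the mitochondrial ribosome differ after the treatment meant to degrade the tagged Ki-67. By limma on log2(TPM + 1), adjusted over 17896 genes, 0 of 77 tested members were called higher and 0 lower (0% of all genes tested in either direction). At an unadjusted p under 0.05 there were also 0 members, against 742 genes (4.15%), of which 1.54% of all tested were higher and 2.61% lower. All members are protein-coding, and only 182 of the 12456 protein-coding genes tested were under that p. Limma voom on recovered reads called 0 members and 1 gene in all (0.00559%, higher). Fitted on protein-coding genes alone, limma called 0.0963% of them higher and 0.201% lower, again with 0 members. The median log2 fold change was -0.01 for the members and -0.02 for all genes tested. The log2 fold change was positive in 33 members and negative in 44 (57.1%, against 55.5% of all genes tested). The member log2 fold changes ran from -0.18 (MRPL38) to 0.16 (MRPS17), with quartiles at -0.06 and 0.05. Their SD was 0.07, against 0.11 for protein-coding genes. For 76 of the 77 members the 95% interval of the log2 fold change lay within 0.5 on either side of 0. Fewer cells and less RNA per cell cannot be told apart in bulk libraries.

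Summed by symbol, MRPL genes held 3603 and 3734 TPM in controls and 3490 and 3755 TPM with IAA. The means were 3669 ± 92.3 TPM (SD, n = 2) and 3623 ± 188 TPM (SD, n = 2), a ratio of 0.987. Summed MRPS genes held 2031 and 2064 TPM in controls and 1960 and 2122 TPM with IAA, with means of 2047 ± 23.7 and 2041 ± 115 TPM (SD, n = 2 each) and a ratio of 0.997. In both sums the IAA replicates lay on either side of the controls. The MRPL to MRPS ratio was 1.77 and 1.81 in controls and 1.78 and 1.77 with IAA. All members together made up 0.563% and 0.580% of the TPM in controls and 0.545% and 0.588% with IAA.

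The libraries of the groups did not overlap in 18 of 77 members. The IAA pair was above the control pair in 10 of 77 members (13.0%, background 11.8%) and below it in 8 (10.4%, background 17.7%), and the groups overlapped in 59. Of the MRPL genes 5 lay above (10.2%, background 11.8%) and 3 below (6.12%, background 17.7%). MRPL1, whose bacterial counterpart forms the stalk beside the tRNA exit site (chromosome 4, 77862520 to 77952790, plus strand), stood at 64.9 and 63.8 TPM in controls and at 74.7 and 69.0 TPM with IAA. The means were 64.3 ± 0.809 and 71.8 ± 4.02 TPM (SD, n = 2 each). Its log2 fold change was 0.16 (SE 0.08, 95% interval -0.04 to 0.35), with the smallest unadjusted limma p of any member, 0.0962, and an adjusted p of 0.999. MRPL39 stood at 66.3 and 65.0 TPM in controls and 70.1 and 69.7 TPM with IAA, a log2 fold change of 0.09 (SE 0.07). MRPL27, whose bacterial counterpart reaches towards the peptidyl transferase centre, stood at 55.7 and 57.5 TPM in controls and 58.6 and 60.7 TPM with IAA. None of these differences passed the test.

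Lower in both IAA libraries were MRPL33, MRPL9 and MRPL35, which have bacterial counterparts in the large subunit. MRPL33 stood at 93.1 and 100.2 TPM in controls and 88.3 and 89.7 TPM with IAA, a log2 fold change of -0.12 (SE 0.08, 95% interval -0.30 to 0.07). MRPL9 stood at 92.1 and 94.8 TPM in controls and 85.0 and 88.6 TPM with IAA. For MRPL35 the groups were nearly level, at 42.0 and 39.9 TPM against 39.8 and 39.9 TPM. The stalk genes MRPL10, MRPL11 and MRPL12, whose proteins recruit translation factors, had values on either side of 0 or close to it. MRPL10 stood at 87.6 and 88.4 TPM in controls and 88.1 and 99.5 TPM with IAA, and the log2 fold changes were 0.09 (SE 0.09) for MRPL10, -0.04 (SE 0.08) for MRPL11 and -0.01 (SE 0.14) for MRPL12.

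**Figure D4:**
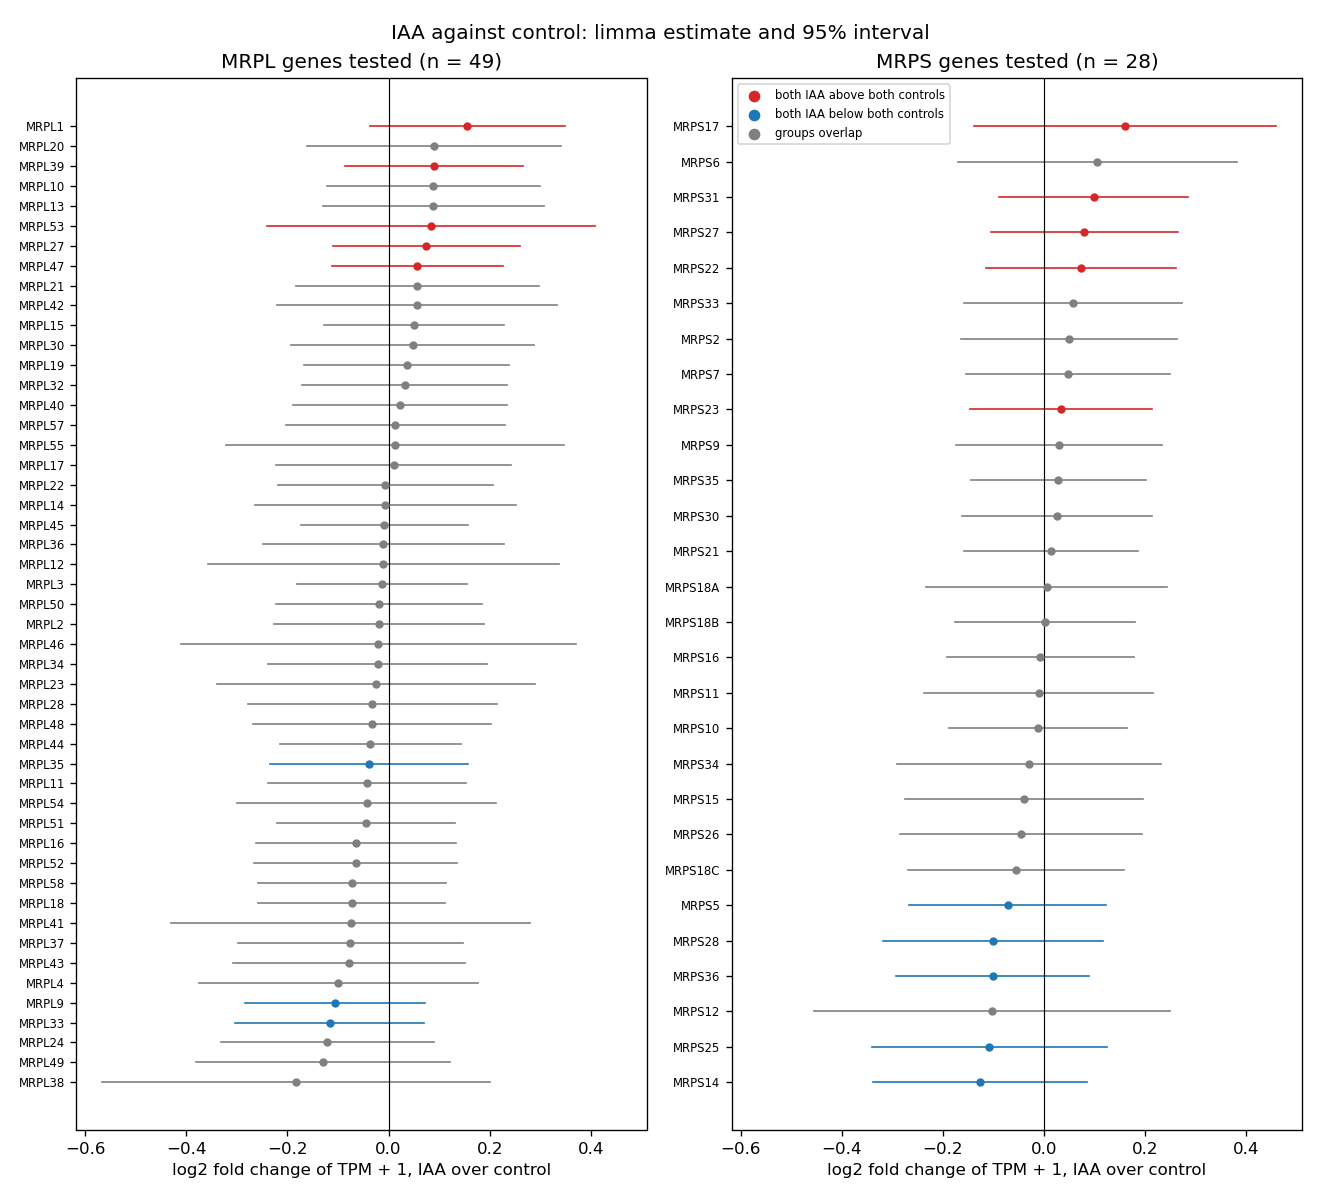
Log2 fold change of IAA over control on the log2(TPM + 1) scale for the 77 tested members, with 95% intervals from limma, by subunit. All intervals include 0, and 76 of 77 lie within 0.5 on either side of it.

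Of the MRPS genes tested, 5 lay above both controls (17.9%, background 11.8%) and 5 below (17.9%, background 17.7%). MRPS17, a counterpart of a bacterial small-subunit protein (chromosome 7, 55951819 to 55956501, plus strand), stood at 7.15 and 8.12 TPM in controls and 8.42 and 8.85 TPM with IAA. Its log2 fold change of 0.16 (SE 0.12, 95% interval -0.14 to 0.46) belongs to a gene with 100% of its coding bases shared. MRPS31 stood at 44.0 and 43.2 TPM in controls and 46.9 and 46.6 TPM with IAA, and MRPS27, an RNA-binding pentatricopeptide repeat protein, at 48.1 and 48.1 TPM against 51.6 and 50.1 TPM. Neither difference passed the test.

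MRPS14 stood at 31.0 and 30.4 TPM in controls and at 27.0 and 29.02 TPM with IAA, a log2 fold change of -0.13 (SE 0.09, 95% interval -0.34 to 0.08). MRPS36, which is KGD4, stood at 71.6 and 77.2 TPM in controls and 69.2 and 69.3 TPM with IAA, a log2 fold change of -0.10 (SE 0.08). MRPS25 stood at 30.2 and 27.0 TPM in controls and 26.2 and 26.6 TPM with IAA. In all 3 both treated libraries were lower, and none passed the test.

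The paralogs MRPS18A, MRPS18B and MRPS18C differed in level more than between groups. MRPS18B, whose protein is in the small subunit, stood at 130.4 and 134 TPM in controls and 128 and 136 TPM with IAA. MRPS18A stood at 91.3 and 90.7 TPM in controls and 84.1 and 99.1 TPM with IAA. MRPS18C was lowest, at 31.6 and 29.9 TPM in controls and 28.7 and 30.4 TPM with IAA. That order by TPM was the same in each of the 4 libraries, which share the same gene lengths as divisors. By reads, MRPS18C lay above MRPS18A in each library. MRPS18C held 1658 to 2257 reads at a length of 4866 bases, and MRPS18A 1283 to 1806 reads at 1284 bases. MRPS30 stood at 44.6 and 44.8 TPM in controls and 46.3 and 44.8 TPM with IAA.

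The larger differences lay between the IAA replicates. MRPL41, a large-subunit gene (chromosome 9, 137551199 to 137552555, plus strand), stood at 127 and 138 TPM in controls but at 108 and 146 TPM with IAA. MRPL12 stood at 102 and 112 TPM in controls and 92.0 and 122 TPM with IAA. MRPS12, whose bacterial counterpart lies at the decoding site, stood at 61.1 and 62.4 TPM in controls and 49.4 and 66.6 TPM with IAA. MRPS26 stood at 134 and 134 TPM in controls and 119 and 142 TPM with IAA. In each of these IAA replicate 1 was the lowest library and replicate 2 the highest. On the log2 scale the IAA replicates differed by 0.43 for MRPL41, 0.40 for MRPL12 and 0.42 for MRPS12, and the controls by 0.12, 0.13 and 0.03.

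These differences ran with base composition. Across the 77 tested members, which share the same libraries, the difference of IAA replicate 2 minus replicate 1 followed the GC content of the transcript with Pearson r = 0.810 and Spearman rho = 0.825. Over 12450 protein-coding genes r was 0.532 and rho 0.582. For control replicate 2 minus replicate 1 the values over members were 0.150 and 0.190. Of the members with the highest GC content (53.4 to 71.9%) IAA replicate 2 was higher in 26 of 26 genes, with a median difference of 0.23. Of those with the lowest (35.0 to 44.6%) it was higher in 10 of 26, with a median of -0.01. The fold change of IAA over control followed GC content with r = -0.311 and rho = -0.301 over members, and with r = -0.327 and rho = -0.387 over protein-coding genes. Whether GC content accounts for these differences was not tested.

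**Figure D5:**
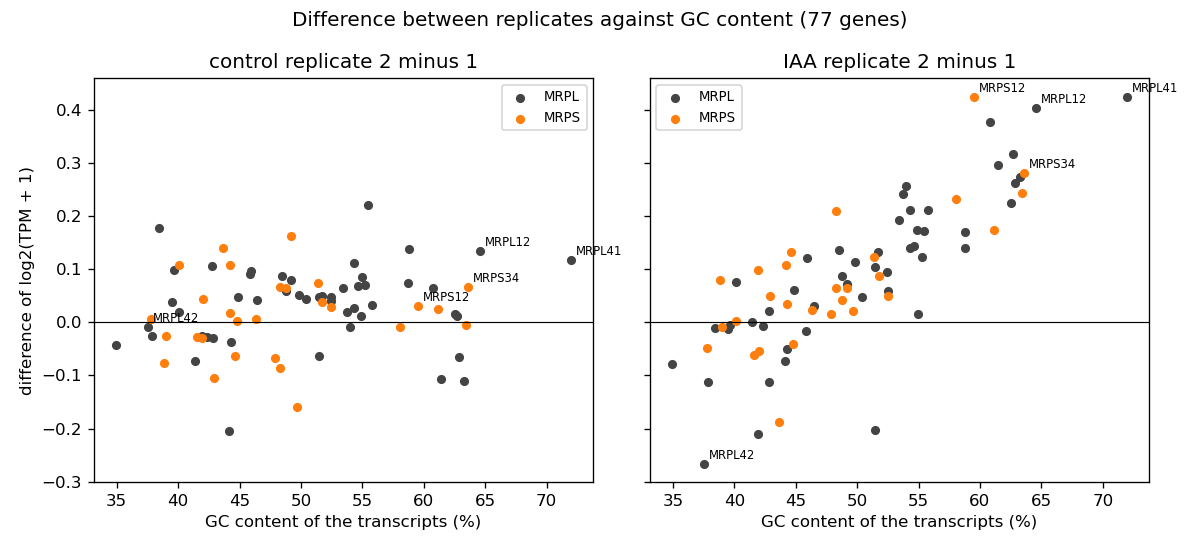
Difference between replicates on the log2(TPM + 1) scale against transcript GC content in percent for the 77 tested members, for the IAA pair and the control pair. The difference within the IAA pair is larger at higher GC content (r = 0.810), and the control pair has r = 0.150.

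The IAA replicates also set which calls could be made. Without IAA replicate 2, limma called 707 genes higher (4.04%) and 573 lower (3.28%), among them 1 member, MRPL41, with a log2 fold change of -0.29 (SE 0.10, adjusted p = 0.0382). Without IAA replicate 1 it called 117 genes higher (0.674%) and 310 lower (1.79%), with 0 members, and the log2 fold change of MRPL41 was 0.14. Each of these fits takes the spread of a single IAA library from that of the controls.

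Genes that work with the mitochondrial ribosome were read from 4 lists, of which 58 of 60 genes were tested. None was called. Both IAA libraries lay above the controls in 3 of the 58 (5.17%, background 11.8%) and below them in 13 (22.4%, background 17.7%). For the counts by sign that follow, 55.5% of all genes tested had a negative log2 fold change. Of 5 mitoribosomal proteins with other names, 2 had a positive log2 fold change and 3 a negative one (median -0.03). GADD45GIP1 stood at 123 and 129 TPM in controls and 100.5 and 121 TPM with IAA, a log2 fold change of -0.19. DAP3, a GTP-binding small-subunit protein, stood at 87.3 and 85.5 TPM in controls and 95.2 and 87.1 TPM with IAA. Of 25 assembly genes, 9 had positive and 16 negative values (median -0.02). MPV17L2 stood at 22.1 and 22.5 TPM in controls and 24.4 and 25.2 TPM with IAA, and the GTPase gene MTG1 at 6.06 and 5.42 TPM against 4.97 and 4.44 TPM.

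Of 15 mitochondrial translation factors, 5 had positive and 10 negative values (median -0.01). The initiation factor gene MTIF3 averaged 41.4 ± 2.03 TPM in controls and 44.7 ± 1.41 TPM with IAA (SD, n = 2 each). TUFM, the elongation factor that brings tRNA, stood at 430.1 and 414 TPM in controls and 358 and 427 TPM with IAA. Of 13 genes of mitochondrial transcription and its nuclear regulators, 3 had positive and 10 negative values (76.9%, background 55.5%), with a median of -0.10. Replicates of the same group differed by as much in this list. The median of replicate 2 minus replicate 1 on the log2 scale was -0.14 in controls and -0.13 with IAA. MYC, a regulator of growth and ribosome genes, stood at 243 and 239 TPM in controls and 206 and 219 TPM with IAA. Its log2 fold change was -0.18 (95% interval -0.35 to -0.01), and its adjusted limma p was 0.999. It was the only gene of these lists to fall below 0.05 without adjustment. PPRC1 stood at 34.8 and 29.4 TPM in controls and 28.1 and 27.8 TPM with IAA. In the other direction, GABPA stood at 44.4 and 40.3 TPM in controls and 48.9 and 40.6 TPM with IAA, a log2 fold change of 0.07. The mitochondrial rRNA genes, whose capture by oligo-dT depends on their short tails, stood at 17763 and 17418 TPM in controls and 19576 and 18493 TPM with IAA for MT-RNR2, and at 4325 and 4272 TPM against 4305 and 4274 TPM for MT-RNR1.

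A further 30 rows of the table carry a member's name stem without being protein-coding, 28 of them pseudogenes, and 19 members have such a pseudogene row. The pseudogenes summed to 30.7 and 31.6 TPM in controls and 34.8 and 29.03 TPM with IAA, so reads of those 19 members may be split in part. Depth was 38733981 to 49448043 recovered reads per library, and tested members held between 76 and 6853 reads each. The epithelial markers EPCAM, CDH1, KRT8, KRT18 and KRT19 were all detected and summed to 3726 to 4109 TPM per library, against 0.292 to 0.727 TPM for blood markers. Endothelial markers summed to 0.349 to 0.495 TPM. Fibroblast markers summed to 13.7 to 15.2 TPM, of which COL1A1 held 13.3 to 14.8 TPM. Squamous markers summed to 26.9 TPM in IAA replicate 1 and to 4.07 to 4.72 TPM in the other libraries, and their part in the results was not tested. In IAA replicate 1, S100A9 held 15.5 TPM, KRT13 6.73 TPM and S100A8 3.51 TPM of that sum. KRT5 (0.883 TPM there) and KRT14 (0.332 TPM there) stayed below 1 TPM in all 4 libraries. MKI67 mRNA, which the degron does not target, stood at 198 and 151 TPM in controls and 174 and 149 TPM with IAA, so it does not check removal of the protein.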

How the data were processed

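Per the labels' protocols, oligo-dT beads enriched mRNA, which was sequenced as paired reads of 150 nt. The authors deposited TPM values per gene. FeatureCounts 1.5.2, DESeq2 1.20.0, hg38 and GRCh38.p12 are named per the submitters' processing notes, without the role of each; the sources used here do not give the aligner or strand setting. TPM multiplied by gene length gave whole reads for 100% of genes (tolerance 1e-06). Limma 3.58.1 in R 4.3.3 (lmFit, eBayes with a trend) was fitted on log2(TPM + 1) for the 17896 genes that reached 1 TPM in 2 or more libraries; this scale understates the change of low genes; p-values had Benjamini-Hochberg adjustment and a threshold of 0.05. The exact two-sided permutation test of 2 against 2 cannot go below 0.333, so none was used. Code was tested on simulated data.

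Members, lists and the naming rule were chosen with earlier results of these data known. Named members were those called; in each subunit and direction the 3 with the smallest p and no overlap of groups; the 3 highest and the 3 lowest; the 2 with the largest difference between IAA replicates; and the MRPS18 paralogs, MRPS30, MRPS36 and the stalk genes. Of each list, the 2 with the smallest p in each direction qualified, and some are given only in the counts. Alternatives were another pseudocount, no filter, TMM scaling, protein-coding genes alone, voom, a replicate block, each library left out and, added after seeing the data, removal of the GC trend (lowess span 0.3) and of members with shared coding bases. The YY1 and NRF1 letters were shortened after a first search with longer ones.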

Additional observations from a re-analysis of the deposited data

How the results depend on the processing

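No member was called under 10 of the 11 alternative fits. The exception left out IAA replicate 2, and over the fits that left out 1 library the members called lower ranged from 0 to 1. Over all genes these fits called 0 to 707 higher and 0 to 573 lower, protein-coding genes alone gave 12 higher and 25 lower, and voom gave 1 higher. Leaving out 1 library moved the median log2 fold change between -0.081 and 0.029 for MRPL and between -0.037 and 0.045 for MRPS genes. With the GC trend removed, added after seeing the data, the sign of the log2 fold change reversed in 14 of 77 tested members, among the 31 named and tested for MRPL12 (0.068), MRPL41 (0.027), MRPS11 (0.021), MRPS26 (0.030), MRPS30 (-0.016) and MRPS34 (0.046). TMM scaling reversed 2 of 77, MRPS18A (-0.0015) and MRPS18B (-0.0054). The cause of these reversals was not tested. At least 1 of the fits without 1 library reversed the sign in 42 of 77 members, 12 of them among the named, with ranges of -0.11 to 0.024 for MRPL11, -0.21 to 0.19 for MRPL12, -0.29 to 0.14 for MRPL41, -0.029 to 0.012 for MRPL45, -0.12 to 0.082 for MRPL46, -0.036 to 0.014 for MRPS11, -0.32 to 0.11 for MRPS12, -0.11 to 0.12 for MRPS18A, -0.043 to 0.045 for MRPS18B, -0.018 to 0.046 for MRPS21, -0.17 to 0.077 for MRPS26 and -0.17 to 0.11 for MRPS34. With the replicate number as a block, 0 genes were called higher and 0 lower, members included; deviations of same-numbered replicates had r = -0.069 and rho = 0.093 over 17896 genes and r = 0.180 and rho = 0.192 over 77 members, and with only 2 numbers and no such statement in the labels they were not taken as pairs. The planned edgeR and DESeq2 fits were not run. The deposited unit is TPM, and voom was the only fit on recovered reads. Depth leaves MRPS24, with 3 to 17 reads, without a usable comparison.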
